A study of Mus musculus with 8 samples.

Results

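The proteins that coat, build and enlarge the lipid droplet were followed at the transcript level through 10 genes: the CIDE genes Cidea and Cidec, the perilipin genes Plin1, Plin2, Plin3, Plin4 and Plin5, the seipin gene Bscl2, and Fitm1 and Fitm2, which encode the fat storage-inducing transmembrane (FIT) proteins. The genes were listed by symbol, the symbols were matched to the RefSeq accessions of the deposited rows, and the row with the highest total stood for a symbol. All 10 were found among 23360 genes, and all 10 passed the filter on low values (10 or more in 4 or more libraries). They were chosen by name for their role, at a time when their scaled read counts in the knockout and control libraries had already been compared, so their differences are given as a description of where they stand among all genes.

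The tissue was inguinal white adipose tissue, a subcutaneous fat depot, taken at 6 weeks of age. The knockout group (4 libraries, labelled Lsd1 KO) came from Lsd1 floxed mice that carried Adipoq-Cre, a recombinase driven by the adiponectin promoter and so active in adipocytes. The control group (4 libraries) came from Lsd1 floxed mice. Lsd1, the product of Kdm1a, removes methyl groups from histone H3. Blood vessel, immune and stromal cells of the pad keep the gene, and a Cre-only group was not analysed here, so the transgene and the deletion cannot be told apart. The labels do not say that each library was a separate mouse. The p-values therefore measure the scatter among these 8 samples only, and part of it may be technical.

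White adipocytes store triglyceride in a single large droplet. Seipin and the FIT proteins sit in the endoplasmic reticulum, where droplets bud. Perilipins coat the droplet surface and control access of lipases, and CIDE proteins gather where droplets touch and move lipid from the smaller to the larger one.

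The deposited values are read counts multiplied by 1 factor per library and are called scaled reads here. Depth was 25671837 to 32442724 recovered reads per knockout library and 27666408 to 29442190 per control library. Kdm1a had 566, 578, 547 and 581 scaled reads in knockout replicates 1 to 4, and 699, 685, 799 and 735 in control replicates 1 to 4, without overlap (log2 fold change -0.36, SE 0.075, limma adjusted p = 0.0498). Adipoq, which encodes adiponectin, was at 25163 to 31049 in knockouts and 30754 to 39979 in controls. The mean log2 value of 19 general adipocyte markers was 14.2 to 14.4 in knockouts and 14.5 to 14.7 in controls, without overlap, and the summed value was 1087360 to 1467660 in knockouts and 1244200 to 1657400 in controls. In bulk tissue, fewer adipocytes and less RNA per adipocyte cannot be told apart. The summed value of 17 skeletal muscle markers was 206998, 198660 and 122032 in knockout replicates 1, 2 and 4 and 14054 in knockout replicate 3, against 9301 to 40062 in controls. All 17 muscle markers were above 0 in every library. All 16 that were tested had a positive log2 fold change (median 2.05), 0 passed with limma or edgeR, 11 had an unadjusted limma p under 0.05 and 8 passed with DESeq2. Over all genes tested the median was 0.02, 14.5% had an unadjusted limma p under 0.05 and DESeq2 called 3.37% higher. The summed value of 8 endothelial markers was 13311 to 15401 in knockouts and 15531 to 17769.6 in controls. All 8 had a negative log2 fold change (median -0.12) and 0 passed with limma or edgeR. An unadjusted limma p under 0.05 was found in 2, against 14.5% of all genes. DESeq2 called 2 lower (Cdh5 and Kdr), against 1.95% of all genes. For 8 macrophage markers the sum was 27583 to 34646 in knockouts and 23473 to 28681 in controls. Of these, 7 had a positive log2 fold change (median 0.25). With limma, edgeR or DESeq2 0 passed, and 3 had an unadjusted limma p under 0.05.

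Of the 10 genes, 3 were lower in the knockouts past the threshold used throughout, an adjusted p under 0.05 over all genes tested, and 0 were higher. They were Cidec, Fitm2 and Bscl2. Among all 14591 genes tested, 1.64% were called, 0.356% lower and 1.28% higher. By edgeR 2 were lower (Cidec and Fitm2), where edgeR called 0.288% of all genes lower and 1.21% higher. By DESeq2 4 were lower (Cidec, Fitm2, Bscl2 and Plin4), where DESeq2 called 1.95% of all genes lower and 3.37% higher. An unadjusted limma p under 0.05 was found in 5 of the 10 and in 14.5% of all genes. The knockout libraries lay wholly below the controls in 4 of the 10, these 3 and Plin4, as in 3.58% of all genes tested. Genes with the knockouts wholly above made up 5.06% and both kinds 8.65%. Since the comparison was known when the genes were listed, nothing is read from these shares.

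**Figure D1:**
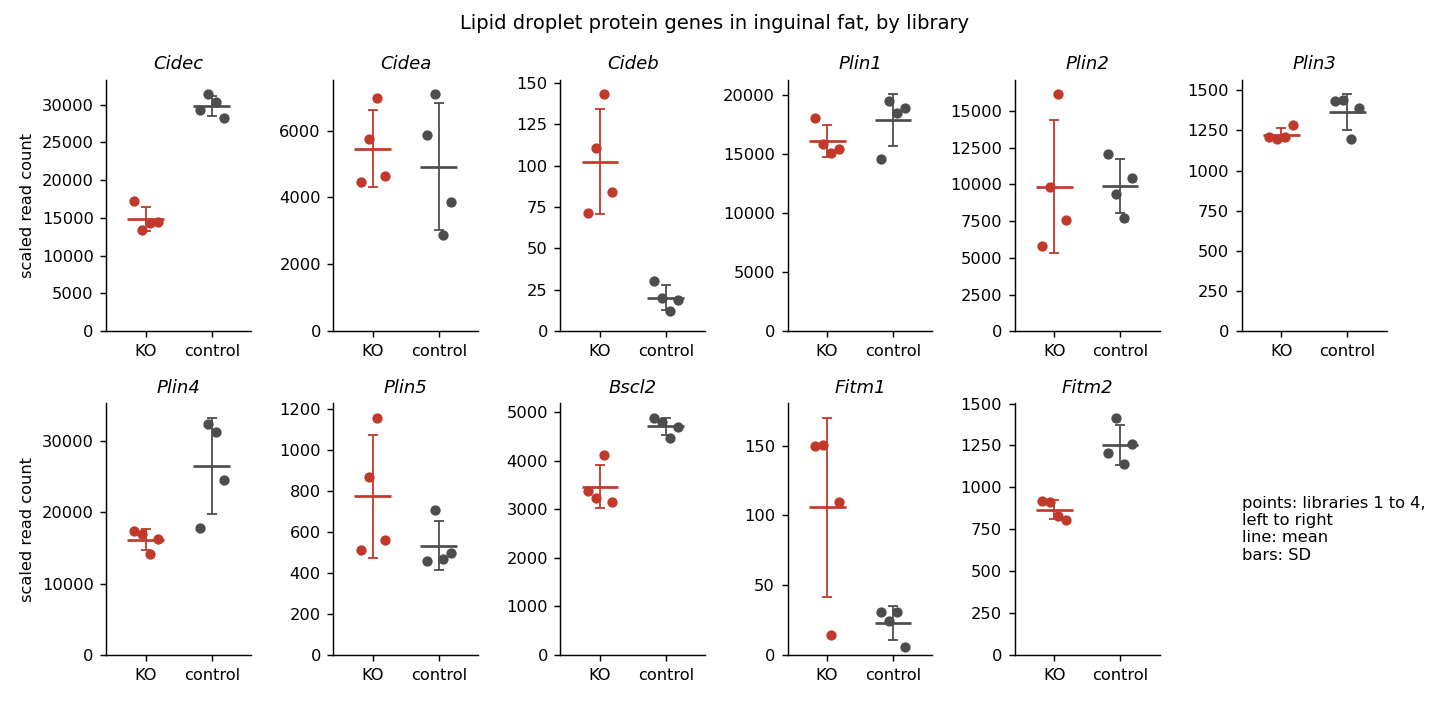
Scaled read counts (linear axes from 0) of the 10 genes and of Cideb in each library, knockouts in red on the left and controls in grey on the right, with the mean as a line and the SD as bars (n = 4 per group). Cidec, Plin4, Bscl2 and Fitm2 have all knockout points below all control points, Cideb has them above, and Fitm1 has 3 knockout libraries at 109 to 151 and 1 at 14.2.

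Of the 10 genes, Cidec had the lowest p. Its protein, also called FSP27, drives the growth of droplets in white adipocytes. The gene lies on chromosome 6 from 113424634 to 113435760 (GRCm38, minus strand). Cidec had 17180, 13394, 14368 and 14395 scaled reads in knockout replicates 1 to 4, and 29345, 31403, 30307 and 28205 in control replicates 1 to 4. Every knockout library lay far below any control, and the spread within each group was small against that gap. The means were 14834 ± 1632 in knockouts and 29815 ± 1363 in controls (SD, n = 4 each), a log2 fold change of -1.01 with a 95% interval from -1.26 to -0.77 (SE 0.11, limma adjusted p = 0.00179). Knockout replicate 3, which had muscle markers as low as the controls, had a Cidec level within the range of the other knockouts. Set against the controls alone it gave a log2 fold change of -1.05, as large as with all 4 knockouts, with an adjusted p of 0.0995 from 1 library assumed to vary like the controls. With the muscle marker score as a covariate the fold change was -1.07 (adjusted p = 0.0158). Only knockout replicate 3 had a muscle score within the control range, so this fit rests largely on that library. With the adipocyte marker score as a covariate the fold change was -1.22 and did not pass (adjusted p = 0.0923). That score itself separates the genotypes.

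Cidea, the family member typical of brown and beige adipocytes (chromosome 18 from 67343564 to 67367794), did not pass. It had 4460, 5733, 6966 and 4654 scaled reads in knockout replicates 1 to 4, and 5856, 7094, 2884 and 3859 in control replicates 1 to 4, so the groups overlapped widely. Its log2 fold change was 0.21 (95% interval -0.38 to 0.80, limma adjusted p = 0.761), so lower and higher levels both lie within the interval, and the sign turned without control replicate 3 (-0.018). The libraries with most Cidea were control replicate 2 and knockout replicate 3, and the one with least was control replicate 3. The same 3 libraries had the highest and lowest mean log2 value of 12 brown and beige markers, 8.21 in control replicate 2, 8.19 in knockout replicate 3 and 6.84 in control replicate 3. Ucp1, the uncoupling protein of brown fat, was at 167 to 4732 scaled reads in knockouts and 384 to 3189 in controls. The part of beige adipocyte content in the spread of Cidea was not tested.

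The other CIDE gene, Cideb (chromosome 14 from 55754052 to 55758424, minus strand), known from lipoprotein lipidation in liver, is not among the 10 but was on a list of other droplet surface proteins. Cideb had 71.4, 110.5, 143 and 84.4 scaled reads in knockout replicates 1 to 4, and 30.3, 20.2, 12.2 and 18.6 in control replicates 1 to 4. All knockouts were above all controls, by a log2 fold change of 2.30 (SE 0.30, limma adjusted p = 0.00512). It was 2.83 for knockout replicate 3 alone (adjusted p = 0.0947) and 3.41 with the adipocyte score as a covariate (0.0908), neither of which passed. Cideb rose while Cidec fell, yet it stayed the far lower of them in every library. Per kilobase of transcript, the ratio of Cideb to Cidec was 0.00992 ± 0.00361 in knockouts and 0.000961 ± 0.000364 in controls (SD, n = 4 each). Of the 1212 bases of the counted Cideb transcript, 860 overlap exons of Nop9 on the other strand, and reads there cannot be told apart without strand. Nop9 was at 396, 458, 568 and 442 in the knockouts and 429.5, 401, 402 and 399.7 in the controls (log2 fold change 0.18, adjusted p = 0.505).

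Of the 5 perilipins, 0 passed with limma or edgeR, 1 passed with DESeq2 (Plin4) and 1 had an unadjusted limma p under 0.05 (also Plin4). Over all genes, DESeq2 called 1.95% lower and 3.37% higher, and 14.5% had an unadjusted limma p under 0.05. Plin1 (chromosome 7 from 79721164 to 79732904), the main perilipin of adipocytes, which holds the lipase co-activator ABHD5 at the droplet, had 18055, 15804, 15079 and 15399 scaled reads in knockout replicates 1 to 4, and 14588, 19483, 18450 and 18873 in control replicates 1 to 4. The groups overlapped because control replicate 1 was the lowest of all 8 libraries. The log2 fold change was -0.14 (95% interval -0.41 to 0.12, limma adjusted p = 0.631). Within a library, per kilobase of transcript, the ratio of Cidec to Plin1 was 1.07, 0.954, 1.07 and 1.05 in the knockouts and 2.26, 1.81, 1.85 and 1.68 in the controls. Every knockout ratio was below every control ratio. The ratio carries the Cidec difference given above, so this is no separate measurement.

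Plin4 (chromosome 17 from 56100587 to 56109948), which binds droplets through a long run of amphipathic repeats and is abundant in white fat, had 17388, 16915, 14181 and 16265 scaled reads in knockout replicates 1 to 4, and 17747, 32378, 31321 and 24556 in control replicates 1 to 4. The knockouts were all below the controls, but control replicate 1 lay only just above them. The log2 fold change was -0.68 (95% interval -1.09 to -0.26) and did not pass (limma adjusted p = 0.128). It passed without control replicate 1 (-0.86, adjusted p = 0.0273) and with DESeq2 (-0.73, 0.00145). Control replicate 1 was also the control with the least Plin1.

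Plin2 (chromosome 4 from 86626910 to 86670217), the perilipin found in most cell types, and Plin5 (chromosome 17 from 56111597 to 56117606), which ties droplets to mitochondria in oxidative tissue, were highest in knockout replicate 3. Plin2 had 5814, 9829, 16162 and 7609 scaled reads in knockout replicates 1 to 4, and 12101, 9355, 7704 and 10427 in control replicates 1 to 4. Plin5 had 509.9, 866, 1157 and 562 in knockout replicates 1 to 4, and 458, 708, 470.05 and 497 in control replicates 1 to 4. The groups overlapped in both genes. Knockout replicate 3 was also the library with the highest summed brown and beige markers. These sums were 5591, 8877, 13716 and 6044 in knockout replicates 1 to 4. In control replicates 1 to 4 they were 10449, 10543, 4151 and 5422. The part of beige adipocyte content in the spread of Plin2 and Plin5 was not tested. The log2 fold changes were -0.09 for Plin2 (95% interval -0.71 to 0.53, limma adjusted p = 0.913) and 0.48 for Plin5 (-0.08 to 1.04, 0.430), and neither passed. The Plin5 value was 0.26 without knockout replicate 3, 1.14 for that library alone, 0.95 with the muscle score and 1.82 with the adipocyte score as a covariate, and passed in none of these. The sign for Plin2 turned in 7 of 28 alternatives, and no direction is given for it.

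Plin3 (chromosome 17 from 56278962 to 56290511), a cytosolic perilipin that loads onto new droplets, had the smallest SE of the 10 genes (0.078). It had 1208, 1196, 1206 and 1283 scaled reads in knockout replicates 1 to 4, and 1434, 1437, 1199 and 1387 in control replicates 1 to 4. Control replicate 3 lay among the knockouts, and the other 3 controls above them. The log2 fold change was -0.15 (95% interval -0.33 to 0.02, limma adjusted p = 0.408).

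**Figure D2:**
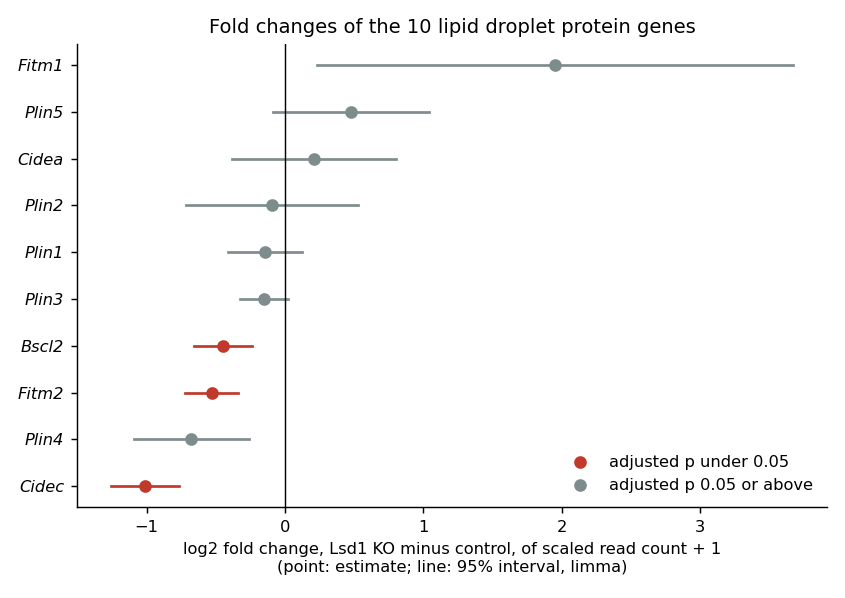
Log2 fold changes of the 10 genes, knockout minus control, with 95% intervals from limma on log2(scaled read count + 1), in red where the adjusted p over all genes was under 0.05. Cidec, Fitm2 and Bscl2 are in red on the left, from -1.01 to -0.45, and Fitm1 has the widest interval (0.23 to 3.67).

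Seipin and Fitm2, both of the endoplasmic reticulum, fell by limma. Bscl2 (chromosome 19 from 8837467 to 8848683), whose human counterpart is mutated in a congenital lipodystrophy, had 3386, 3224, 4112 and 3159.8 scaled reads in knockout replicates 1 to 4, and 4882, 4803, 4476 and 4692 in control replicates 1 to 4. Every knockout was below every control, and knockout replicate 3 lay nearest to them. The log2 fold change was -0.45 (SE 0.094, limma adjusted p = 0.0496), just under the threshold. The call was lost in 21 of 28 alternatives, among them edgeR (-0.46, adjusted p = 0.0783), TMM scaling (-0.47, 0.0647) and any 1 library left out except knockout replicate 3. The fold change was -0.27 (adjusted p = 0.160) with the muscle marker score as a covariate and -0.20 (0.433) for knockout replicate 3 alone. The 3 knockouts with high muscle markers were the 3 with the least Bscl2. Of the counted Bscl2 transcript, 398 of 1962 bases overlap exons of Gng3 on the other strand (42.5 to 54.0 in knockouts and 50.9 to 62.9 in controls) and 239 overlap AC129217.1 on the same strand.

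Fitm2 (chromosome 2 from 163468703 to 163472629, minus strand), which partitions triglyceride into budding droplets in most tissues, had 919, 912, 831 and 805 scaled reads in knockout replicates 1 to 4, and 1202, 1416, 1140.4 and 1257 in control replicates 1 to 4. The groups were well apart, and knockout replicate 3 lay inside the knockout range. The log2 fold change was -0.53 (95% interval -0.72 to -0.34, SE 0.087, limma adjusted p = 0.0174). The size was kept for knockout replicate 3 alone (-0.59, adjusted p = 0.143) and with the muscle score as a covariate (-0.56, 0.0586), where it did not pass. Nor did it pass without knockout replicate 2 (-0.55, 0.0532), knockout replicate 4 (-0.50, 0.0750), control replicate 4 (-0.53, 0.0581) or with both control replicates 1 and 2 left out (-0.47, 0.116), the samples labelled 518 and 517 where the other 6 are labelled 356 to 361. The same held with the B cell (-0.46, 0.0548) or adipocyte (-0.36, 0.333) marker score. The summed B cell and lymph node markers were 14114 to 19196 in knockouts and 9320 to 19146 in controls. An antisense gene, 2310001K24Rik, overlaps 227 of the 3967 counted bases and was itself at 17.3 to 27.8 in knockouts and 38.7 to 50.5 in controls.

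Fitm1 (chromosome 14 from 55575674 to 55576952), the FIT gene of skeletal and heart muscle, had 149, 151, 14.2 and 109 scaled reads in knockout replicates 1 to 4, and 30.8, 24.1, 30.9 and 5.67 in control replicates 1 to 4. Knockout replicates 1, 2 and 4 stood above all other libraries and knockout replicate 3 among the controls, which is the split of the muscle marker sums given above. Acta1, skeletal muscle actin, was at 45249, 38179, 2986 and 27678 in knockout replicates 1 to 4 and at 1982 to 8632 in controls. The log2 fold change of Fitm1 was 1.95 (95% interval 0.23 to 3.67, limma adjusted p = 0.286). It turned to -0.077 (adjusted p = 0.936) with the muscle score as a covariate, to -0.38 (0.925) with the adipocyte score and to -0.42 (0.837) for knockout replicate 3 alone, and it passed only without that library (2.75, 0.0227). Of the 971 counted bases, 109 overlap the antisense gene Gm15932.

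**Figure D3:**
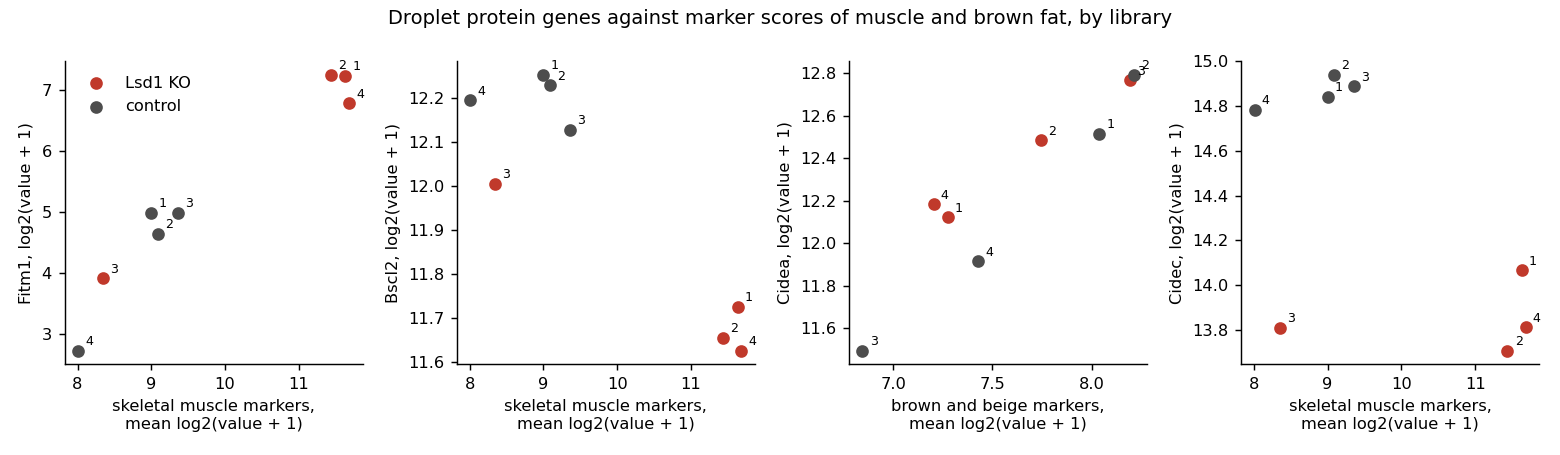
Log2(scaled read count + 1) of Fitm1, Bscl2, Cidea and Cidec in each library (knockouts in red, controls in grey, numbers are replicates) against the mean log2(value + 1) of skeletal muscle or of brown and beige markers. Fitm1 is high and Bscl2 low in the 3 knockouts on the right at muscle scores of 11.4 to 11.7, Cidea is highest in the 2 libraries with the highest brown and beige scores and lowest in the one with the lowest, and Cidec is low in all 4 knockouts, also in replicate 3 at a muscle score of 8.35.

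Read per kilobase of the counted transcript, the 10 genes covered a wide range of levels. By its mean, Cidec was first in both groups with 8711 ± 958 in knockouts and 17507 ± 800.5 in controls (scaled reads per kilobase, SD, n = 4 each). It was not first in every library. Plin1 was above Cidec in knockout replicate 2 (8248 against 7865), and Plin2 was above Cidec in knockout replicate 3 (8560 against 8437). Plin1 followed with 8395 ± 703 in knockouts and 9315 ± 1156 in controls, so that in the knockouts these leading genes were within the spread of each other and in the controls they were not. Plin2 came after them by mean (5219 ± 2391 in knockouts and 5242 ± 979 in controls), within the spread of Cidea in both groups. Cidea (4891 ± 1034 in knockouts and 4415 ± 1707 in controls) and Plin4 (2812 ± 246 in knockouts and 4604 ± 1179 in controls) followed and were within each other's spread in the controls. Bscl2 was sixth with 1769 ± 223 in knockouts and 2402 ± 89.9 in controls. Plin5, Plin3 and Fitm2 stood at 389, 336 and 218 in knockouts and 268, 374 and 316 in controls, and Fitm1 was last with 109 ± 66.0 in knockouts and 23.5 ± 12.2 in controls. The sum over the 10 genes was 30079.9 to 36811 per kilobase in knockouts and 42700.2 to 49131 in controls. Cidec made up 26.7% ± 3.73 of that sum in knockouts and 39.4% ± 1.81 in controls, while Plin1 made up 25.7% ± 3.25 in knockouts and 21.0% ± 2.38 in controls. A share falls or rises with the other genes of the sum, so these shares are no separate measurements.

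**Figure D4:**
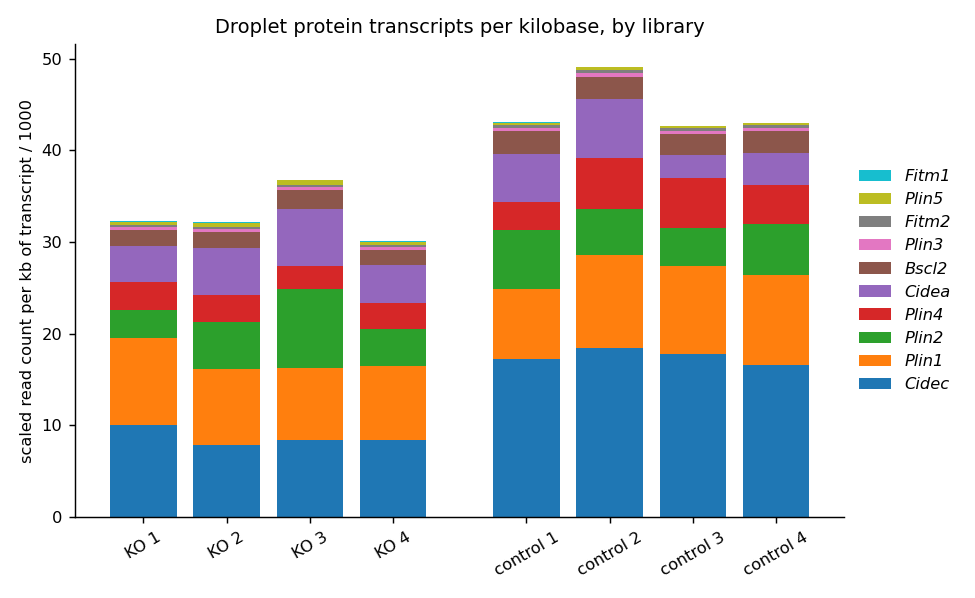
Scaled read counts per kilobase of the counted transcript (axis in units of 1000) of the 10 genes, stacked by library, knockouts on the left and controls on the right. The Cidec block at the base is about as tall as the Plin1 block above it in each knockout and much taller in each control.

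The 250 bases upstream of the start (RefSeq, GRCm38.p6) are shown for the 3 genes that passed, Cidec, Fitm2 and Bscl2, and for Cideb, the CIDE gene that was higher. Capitals mark matches, on either strand, to 6 short motifs: the nuclear receptor half-site AGGTCA, the GC box GGGCGG, the CCAAT box CCAAT, the TATA box TATAAA, the E-box CACGTG and the C/EBP core TTGCNNAA. No motif is contained in another. Cidec has 2 annotated starts 996 bases apart, which the deposited row, 1 per gene, does not separate.
Cidec, upstream start, chr6:113435761-113436010, minus strand: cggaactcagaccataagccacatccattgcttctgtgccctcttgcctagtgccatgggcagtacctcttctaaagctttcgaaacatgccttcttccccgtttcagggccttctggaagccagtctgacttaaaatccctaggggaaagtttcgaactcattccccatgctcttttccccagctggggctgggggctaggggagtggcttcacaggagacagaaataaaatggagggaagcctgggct
Cidec, downstream start, chr6:113434765-113435014, minus strand: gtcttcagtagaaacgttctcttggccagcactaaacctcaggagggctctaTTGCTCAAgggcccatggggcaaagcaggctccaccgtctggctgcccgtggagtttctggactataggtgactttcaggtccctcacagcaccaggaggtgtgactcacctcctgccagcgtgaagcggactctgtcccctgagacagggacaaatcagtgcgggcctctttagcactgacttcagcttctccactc
Fitm2, chr2:163472630-163472879, minus strand: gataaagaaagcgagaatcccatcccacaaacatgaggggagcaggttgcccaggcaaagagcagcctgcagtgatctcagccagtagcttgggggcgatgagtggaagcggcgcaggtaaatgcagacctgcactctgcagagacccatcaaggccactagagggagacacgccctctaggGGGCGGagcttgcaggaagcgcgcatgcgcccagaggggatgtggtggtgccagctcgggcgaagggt
Bscl2, most upstream of 3 starts, chr19:8837217-8837466, plus strand: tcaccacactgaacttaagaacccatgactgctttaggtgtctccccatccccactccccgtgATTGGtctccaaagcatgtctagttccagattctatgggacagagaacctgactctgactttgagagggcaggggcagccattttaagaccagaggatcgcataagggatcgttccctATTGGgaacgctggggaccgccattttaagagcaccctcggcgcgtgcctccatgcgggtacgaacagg
Cideb, chr14:55758425-55758674, minus strand: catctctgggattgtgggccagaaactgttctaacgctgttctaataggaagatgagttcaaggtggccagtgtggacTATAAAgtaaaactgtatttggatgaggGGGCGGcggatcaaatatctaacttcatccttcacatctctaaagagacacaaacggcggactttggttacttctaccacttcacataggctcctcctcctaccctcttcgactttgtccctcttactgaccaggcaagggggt

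None of the 6 motifs was shared by the printed windows of Cidec, Fitm2 and Bscl2. The upstream Cidec window held no match, and the downstream one held the C/EBP core at bases -198 to -191 from its start, which 9.56% of 32851 promoter windows of this length hold. Fitm2 held a GC box (32.7% of windows) and the printed Bscl2 window 2 CCAAT boxes (33.8%), and Cideb a TATA box (12.4%) and a GC box. The window of the second Bscl2 start, not printed, held an AGGTCA half-site at bases -202 to -197. Of the perilipins, Plin1 held 2 matches to the C/EBP core, and Plin2 and the upstream Plin5 start an AGGTCA half-site (14.02% of windows). A match is a run of letters and not a shown site, and a window without one says nothing of what binds there.

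Beyond the 10 genes, 70 of 72 other lipid droplet genes on 6 lists by role were tested. Of these 1 rose, Cideb, and 1 fell, Clstn3 (limma), against 10 lower and 1 higher with DESeq2. Over all genes tested, limma called 0.356% lower and 1.28% higher, and DESeq2 1.95% lower and 3.37% higher. In all, 49 had a negative and 21 a positive log2 fold change, with a median of -0.09 against 0.02 for all genes tested. Clstn3, whose locus also encodes an adipocyte isoform that restrains CIDE proteins and is not separable here, had 195, 239, 274 and 129 scaled reads in knockout replicates 1 to 4, and 734, 555, 476 and 588 in control replicates 1 to 4. The knockouts were below all controls (log2 fold change -1.52, SE 0.22, limma adjusted p = 0.00929). It did not pass with both control replicates 1 and 2 left out (-1.39, 0.107), with the muscle (-1.17, 0.0638) or adipocyte (-0.91, 0.331) score or for knockout replicate 3 alone (-1.08, 0.129).

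Of the 10 genes of lipolysis at the droplet, 0 passed with limma or edgeR, 4 had an unadjusted limma p under 0.05 (14.5% of all genes did), and 4 were lower with DESeq2 (Pnpla2, Lipe, Mgll and Ces1f; 1.95% of all genes were). Their median log2 fold change was -0.22. The ends of the list were Ces1f, a carboxylesterase (1701 ± 573 in knockouts and 2988 ± 476 in controls, log2 fold change -0.86, adjusted p = 0.0994), and G0s2, an inhibitor of the lipase ATGL (5705 ± 2469 in knockouts and 4999 ± 527 in controls, 0.11, 0.865). The Ces1f value passed without knockout replicate 1 (-1.06, limma adjusted p = 0.0208) and with the muscle (-1.29, 0.0308) or mammary (-1.19, 0.0204) score. It did not pass in 23 of 28 alternatives. Ces1f belongs to a cluster of near-identical carboxylesterase genes, and its reads are uncertain. Of 16 genes of lipid synthesis at the droplet, 0 passed with limma or edgeR, 5 had an unadjusted limma p under 0.05, against 14.5% of all genes, and 2 were lower with DESeq2 (Dgat1 and Gpat3), against 1.95% of all genes. Their median was -0.18. Gpat3, which starts glycerolipid synthesis, was at 1582 ± 321 in knockouts and 2290 ± 212 in controls (-0.55, adjusted p = 0.0997). The Gpat3 value passed without knockout replicate 3 (-0.67, adjusted p = 0.0165) and was -0.21 for that library alone, -0.30 with the muscle score and -0.010 with the adipocyte score. Mogat1, a monoacylglycerol acyltransferase, was at 289 ± 59.1 in knockouts and 236 ± 56.6 in controls (0.30, 0.523).

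Of 13 genes tested for droplet formation and membrane contact sites, 0 passed with limma, edgeR or DESeq2. An unadjusted limma p under 0.05 was found in 1, against 14.5% of all genes, and the median log2 fold change of the list was -0.06. Tmem159, which encodes the seipin partner LDAF1, was highest (725 ± 106 in knockouts and 583 ± 103 in controls, 0.32, limma adjusted p = 0.332) and Vps13c, a lipid transfer protein, lowest (771 ± 229 in knockouts and 948 ± 202 in controls, -0.32, 0.553). In the list of caveolae and structural proteins, 0 of 7 passed with any of these tools and 0 had an unadjusted limma p under 0.05, with log2 fold changes from -0.09 for Cavin1, a coat protein of caveolae, to 0.11 for Cav1, their membrane protein. Cav1 was at 20099.5 ± 1339 in knockouts and 18722 ± 2164 in controls, and Cavin1 at 11721 ± 439 in knockouts and 12525 ± 1580 in controls.

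Of 14 regulators of droplet genes, 0 passed with limma or edgeR, 3 had an unadjusted limma p under 0.05, where 14.5% of all genes did, and 2 were lower with DESeq2 (Ppara and Cebpa), where 1.95% of all genes were. Their median log2 fold change was -0.01. Ppara, a nuclear receptor of fatty acid use, was lowest with 388, 190.5, 128 and 232 scaled reads in knockout replicates 1 to 4 and 421, 644, 451 and 375 in control replicates 1 to 4 (-1.09, limma adjusted p = 0.125). It passed with the muscle score as a covariate (-1.70, adjusted p = 0.0332). With 1 library left out, its log2 fold change ran from -1.37 to -0.84 and its limma adjusted p from 0.0231 to 0.309. Ppargc1a, a co-activator of mitochondrial genes, was highest (236 ± 50.1 in knockouts and 184 ± 57.5 in controls, 0.38, 0.484).

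**Figure D5:**
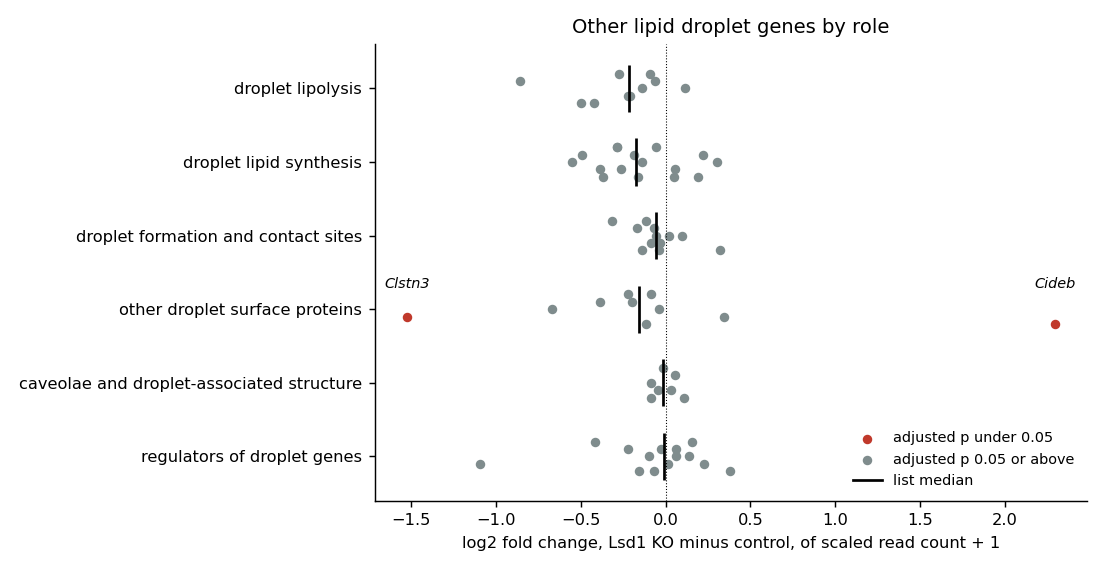
Log2 fold changes, knockout minus control, of the 70 other lipid droplet genes tested, by role, with the list median as a black line and genes of adjusted p under 0.05 in red. Clstn3 at -1.52 and Cideb at 2.30 are the genes in red, and caveolar genes lie between -0.09 and 0.11.

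The genes whose levels ran most like Cidec over the 8 libraries, among 11267 others with a mean of at least 100, were Cep70, Wfdc21, Car5b, Knop1 and Ppm1m (Pearson's r 0.96 to 0.98 on log2 values). The r carries the difference between genotypes, which Cidec was known to show. Car5b, a mitochondrial carbonic anhydrase, was at 2405, 2121, 2198 and 2140 scaled reads in knockout replicates 1 to 4 and at 4863, 4126, 4145 and 4510 in control replicates 1 to 4 (log2 fold change -0.99, limma adjusted p = 0.000443). Wfdc21, a small secreted protein, was at 163 ± 19.7 in knockouts and 572 ± 75.9 in controls (-1.80, 0.000282). Cep70 (-0.44, adjusted p = 0.0734), Knop1 (-0.34, 0.0694) and Ppm1m (-0.27, 0.0759) did not pass.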

How the data were processed

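RNA-seq reads of the 8 libraries were aligned to mm10 with TopHat version 2 and counted with HOMER, as the series' design text says. The sources used here give no annotation, strand setting or scaling. The authors deposited a signal per RefSeq accession. In each library 100% of values up to 1000 steps were whole multiples of 1 step (0.442 to 0.545, tolerance 0.02), so the deposited values are scaled read counts, and reads were recovered by dividing by the step.

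Of 23373 rows per library, 1 had no accession and held 0. Symbols came from RefSeq GRCm38.p6 (22527 rows) and GENCODE M21 (124 rows), and transcript lengths and overlaps from GENCODE M21.

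The test was limma 3.58.1 (trend) on log2(value + 1), genotype only, over 14591 genes, with Benjamini-Hochberg adjustment. Fold changes are knockout minus control and understate those of low genes. Alternatives were edgeR 4.0.16 and DESeq2 1.42.0 and limma-voom on recovered reads, other scalings, pseudocounts, filters and thresholds, left-out libraries, and marker scores (mean log2 values) as covariates. Knockout replicate 3 alone and edgeR on halved reads were added after seeing the data. Code was tested on simulated data.

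The members and lists were chosen with earlier results of these data known. Named by rule were the 10 genes, Kdm1a, list genes that passed or were highest or lowest, the 5 genes most like Cidec, and Acta1, Ucp1 and Adipoq. Genes called with DESeq2 and overlapping genes were named after their values were seen.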

Additional observations from a re-analysis of the deposited data

Results flagged for a closer look

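Among 22 groups of 4 libraries (11 genes in each genotype), 2 held a library far from the other 3, where chance gives about 1 in 20 groups. Plin3 was at 1282.6 scaled reads in knockout replicate 4, and the other 3 knockouts were at 1196 to 1208. Plin5 was at 708.16 in control replicate 2, and the other 3 controls were at 458 to 497.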

How the results depend on the processing

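Of the 10 genes, 3 were lower and 0 higher. The lower count was 1 at a threshold of 0.01, without control replicates 1 and 2 together, and with the muscle or B cell score, and 0 with the adipocyte score or for knockout replicate 3 alone. It ran from 1 to 3 with 1 library left out, and the higher count from 0 to 1. Cidec was lower in 28 of 28 alternatives and passed in 26.
Over all genes, 187 were higher and 52 lower. Counts were 492 and 284 with DESeq2, 69 and 11 at a threshold of 0.01, 294 and 115 at 0.1, 84 and 13 without control replicates 1 and 2, 1 and 0 with the adipocyte score, 100 and 18 with the B cell score, and 9 and 10 for knockout replicate 3 alone. The higher count was 122 with the muscle and 116 with the mammary score. With 1 library left out they ran from 75 to 381 higher and from 12 to 79 lower.
Of the other droplet genes, 1 was higher (0 with the adipocyte score and for knockout replicate 3 alone) and 1 lower. The lower count was 10 with DESeq2, 3 at a threshold of 0.1, 2 with the muscle or mammary score, 0 without control replicates 1 and 2, with the adipocyte score and for knockout replicate 3 alone, and 1 to 3 with 1 library left out.
Kdm1a (-0.36, adjusted p = 0.0498 with limma) did not pass at a threshold of 0.01, with library-total scaling (-0.35), a pseudocount of 0.5 (-0.36), no filter (-0.36), a filter of 50 (-0.36), without control replicates 1 and 2 (-0.43), with the muscle (-0.40), B cell (-0.41), mammary (-0.37) or adipocyte (-0.52) score, or for knockout replicate 3 alone (-0.41). With 1 library left out it ran from -0.39 to -0.31 and passed in none of the 8 fits (adjusted p 0.0579 to 0.152), and the call was lost in 19 of 28 alternatives in all.
Signs turned as follows. Plin2 ran from -0.37 to 0.13 with 1 library left out (0.13 for knockout replicate 1, 0.010 for control replicate 1) and was 0.031 without control replicates 1 and 2, 0.54, 0.17 and 1.11 with the muscle, mammary and adipocyte scores, and 0.73 for knockout replicate 3 alone. Cidea was -0.018 without control replicate 3 and up to 0.41 with another library left out. Fitm1 was -0.077 and -0.38 with the muscle and adipocyte scores and -0.42 for knockout replicate 3 alone. For Acta1 these values were -0.31, -0.80 and -0.79. Ucp1 (-0.41 with limma) was 0.15 with edgeR, 0.15 with DESeq2, 0.16 on halved reads, -1.24 to 0.36 with 1 library left out (0.098 for control replicate 1), 0.63 without control replicates 1 and 2, 1.38, 0.46 and 4.31 with the muscle, mammary and adipocyte scores, and 2.09 for knockout replicate 3 alone. G0s2 was -0.16 without knockout replicate 3 and up to 0.24 with another library left out, Cav1 -0.024 without control replicates 1 and 2, and Cavin1 0.041 with the adipocyte score. The cause was not tested.
The adipocyte score separates the genotypes, so it and genotype cannot be told apart. The muscle score of knockout replicates 1, 2 and 4 lay above all controls, so fits with it rest largely on knockout replicate 3. For knockout replicate 3 alone, 1 library is assumed to vary like the controls. No paired analysis was made because the labels name no pairs or litters. Depth limits Fitm1, which rests on 11 to 277 reads per library.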

Other observations

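Markers of other cells in the pad were also measured. Of 10 progenitor and fibroblast markers, 0 passed with limma or DESeq2 and 0 had an unadjusted limma p under 0.05, and their summed value was 176300 to 243605 in knockouts and 179745 to 217672 in controls. Of 12 brown and beige markers 11 were tested, and 0 passed with limma (2 had an unadjusted p under 0.05, and 1, Slc27a2, was lower with DESeq2). Over all genes, 14.5% had an unadjusted limma p under 0.05 and DESeq2 called 1.95% lower. Of 12 mammary epithelium markers 3 were tested, and 0 passed with limma or DESeq2. The 12 summed to 114 to 561 in knockouts and 84.9 to 129 in controls, and the highest were knockout replicates 1 (561) and 2 (264). Krt5 and Krt14, keratins of basal epithelium named after their values were seen, were at 237 and 137 in knockout replicate 1 and 82.2 and 39.7 in replicate 2, and at 0 to 0.98 in the other 6 libraries. Of the other markers on this list, named likewise, Krt8 was at 0 to 3.27 and Krt18 at 1 to 9.73 over all libraries. Esrp1 (13.1 and 4.35) and Cldn3 (56.7 and 44.6) were highest in knockout replicates 1 and 2. The source of these reads was not tested.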
